A study of Mus musculus with 12 samples.

Results

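The genes described here are 39 interferon response genes of the mouse, a list that spans the sensors, transcription factors, receptor chains, antiviral effectors and antigen-processing genes of the pathway. The list was given by gene symbol. Each gene was read from the probe set annotated to its symbol alone, and from the brightest such probe set over the 12 arrays where there were several. Of the 39 genes, 38 had such a probe set, among 19938 genes in all, and Ifi44 had none and was not analysed.

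The study used R1 cells, a mouse embryonic stem cell line, and a 1-colour Affymetrix array with 1 array per sample. Cells carried either a knockdown of Set, which encodes a histone chaperone and inhibitor of the phosphatase PP2A, or a scrambled control, both introduced by infection. The knockdown came as the lines KD1 and KD2, which the labels call clones, so each knockdown is 1 line and the control is another. The 6 groups of 2 arrays were RA KD1, RA KD2, RA Scrambled, ESC KD1, ESC KD2 and ESC Scrambled. The RA groups were differentiated for 4 days in medium holding 10% serum and retinoic acid (1 µM), from which leukemia inhibitory factor had been left out. The ESC groups grew with 15% serum and 1000 U/ml of that factor. RA and ESC thus differed in retinoic acid, serum and the factor at once. Replicates are labelled biological, with no source of the separate samples given, so a p-value here covers only how far arrays of a line differ, which may be technical, and line and knockdown cannot be told apart.

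Interferons are secreted proteins that announce viral infection to neighbouring cells. Type I interferons bind a receptor made of Ifnar1 and Ifnar2, whose Janus kinases start a signal to the nucleus. There a complex that holds Stat2 and Irf9 binds interferon-stimulated response elements in the promoters of target genes. Cells also sense viral RNA directly, through receptors such as Ddx58 (RIG-I) and Ifih1 (MDA5), which signal through Mavs to Irf3. Pluripotent stem cells are known for a weak response of this kind, which is gained as cells differentiate.

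Promoters are shown for 7 members on which the results turn or which make a contrast with them. Ifit1, Ifit2 and Ifit3 are neighbours on chromosome 19 that were higher in RA Scrambled cells. B2m and Tap1 were higher in RA and Ddx58 was lower, while Rsad2 was not called in any comparison. RefSeq gave each window, on build GRCm38.p6, from 250 bases before the gene's start to 50 after it, 300 bases in all, read 5′ to 3′ on the gene's strand. The core of the response element was searched as GAAA, any 2 bases and GAAA again, and a gamma-activated site, an element of genes that answer interferon gamma, as TTCNNNGAA, both strands each, with overlapping matches counted. Capitals mark a match in either orientation, which is the core in each window that has capitals except Ifit2, where it is the gamma-activated site.
Ifit1, chr19:34640639-34640938, plus strand: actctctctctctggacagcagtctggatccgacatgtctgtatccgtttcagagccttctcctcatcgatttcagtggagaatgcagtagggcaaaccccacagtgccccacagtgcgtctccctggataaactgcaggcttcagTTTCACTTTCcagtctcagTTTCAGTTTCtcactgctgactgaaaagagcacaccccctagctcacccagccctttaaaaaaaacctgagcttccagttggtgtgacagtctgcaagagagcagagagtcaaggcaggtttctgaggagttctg
Ifit2, first of 2 windows, chr19:34550444-34550743, plus strand: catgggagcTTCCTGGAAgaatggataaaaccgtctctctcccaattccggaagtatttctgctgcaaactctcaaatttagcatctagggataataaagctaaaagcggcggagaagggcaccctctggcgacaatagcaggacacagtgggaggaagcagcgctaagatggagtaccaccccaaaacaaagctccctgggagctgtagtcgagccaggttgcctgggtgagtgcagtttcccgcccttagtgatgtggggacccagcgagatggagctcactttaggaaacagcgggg
Ifit3, chr19:34583279-34583578, plus strand: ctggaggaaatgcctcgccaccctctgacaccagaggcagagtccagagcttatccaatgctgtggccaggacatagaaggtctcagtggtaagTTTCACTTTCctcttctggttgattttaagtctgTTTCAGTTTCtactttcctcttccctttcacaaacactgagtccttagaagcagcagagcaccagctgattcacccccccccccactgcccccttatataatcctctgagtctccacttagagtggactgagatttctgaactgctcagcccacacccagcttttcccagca
B2m, chr2:122147437-122147736, plus strand: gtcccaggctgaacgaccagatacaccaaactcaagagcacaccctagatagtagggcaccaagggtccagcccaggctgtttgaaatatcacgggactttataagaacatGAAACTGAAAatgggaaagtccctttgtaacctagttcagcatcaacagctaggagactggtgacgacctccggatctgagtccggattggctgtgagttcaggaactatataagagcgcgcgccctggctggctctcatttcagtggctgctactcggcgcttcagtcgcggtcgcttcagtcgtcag
Ddx58, chr4:40239776-40240075, minus strand: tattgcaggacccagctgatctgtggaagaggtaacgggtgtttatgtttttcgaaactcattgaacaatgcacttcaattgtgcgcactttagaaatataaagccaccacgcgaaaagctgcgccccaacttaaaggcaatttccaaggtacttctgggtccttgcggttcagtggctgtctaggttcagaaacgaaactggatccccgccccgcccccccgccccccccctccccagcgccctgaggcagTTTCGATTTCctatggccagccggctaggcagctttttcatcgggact
Rsad2, chr12:26456403-26456702, minus strand: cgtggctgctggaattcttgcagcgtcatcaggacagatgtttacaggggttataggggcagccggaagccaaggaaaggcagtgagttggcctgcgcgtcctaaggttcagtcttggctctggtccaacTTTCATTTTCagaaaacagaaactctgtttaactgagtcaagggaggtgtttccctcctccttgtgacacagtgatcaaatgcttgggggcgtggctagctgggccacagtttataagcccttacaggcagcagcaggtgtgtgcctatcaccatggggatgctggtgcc
Tap1, chr17:34187306-34187605, plus strand: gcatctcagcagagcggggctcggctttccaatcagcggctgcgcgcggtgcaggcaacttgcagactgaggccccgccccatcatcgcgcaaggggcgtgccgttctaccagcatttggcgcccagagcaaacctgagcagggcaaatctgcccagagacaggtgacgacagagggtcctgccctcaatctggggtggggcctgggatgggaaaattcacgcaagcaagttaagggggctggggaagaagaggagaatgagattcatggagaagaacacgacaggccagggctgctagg

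Ifit1 held the core at -104 and -85 from its start (first base of the match), and Ifit3 at -156 and -122. B2m held it at -139, Rsad2 at -120 and Ddx58 at 3, just inside the transcript. Neither Tap1 nor the first window of Ifit2 held it. The Tap1 window shared 275 bases with that of Psmb9, an immunoproteasome subunit transcribed the other way. Of 32 members with a window in the table, 12 held the core and 10 held a gamma-activated site. Over all 27025 genes with a window the shares were 3.99% and 9.55%, and over all 32851 windows 3.44% and 8.30%. A match is a description of letters and not evidence of binding. Usp18, Oas2, Zbp1, Rtp4, Parp9, Parp14 and Dhx58 were not among the windows.

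Of the 12 arrays, 2 went against their label, namely ESC KD2 replicate 2 and, in the RA state, KD2 replicate 2. The first correlated at 0.9864 on average with RA-labelled arrays and at 0.9517 with other ESC-labelled ones, and the second at 0.9862 with ESC-labelled and 0.9518 with other RA-labelled ones. Over the 38 members the best match of the first was RA KD2 replicate 1 (r = 0.927). Comparisons of scrambled and KD1 cells therefore used the 8 arrays of those 4 groups, while KD2 is described apart, with and without both arrays. Stem cell markers averaged 8.33 to 8.77 log2 units in RA KD1 and 8.56 to 9.55 in RA Scrambled, against 12.39 to 12.46 in ESC KD1 and 12.35 to 12.45 in ESC Scrambled. Retinoic acid response markers averaged 11.22 to 11.44 in those RA arrays and 6.80 to 7.13 in the ESC ones. Set, by the probe set it shares with BC085271, was lower in KD1 than in scrambled cells by limma, at -1.06 in RA (SE 0.09, adjusted p = 0.000199) and -0.78 in ESC (SE 0.09, adjusted p = 0.00565). Neither of the 2 probe sets whose only symbol is Set was called, at 0.10 and 0.24 in RA and -0.59 and -0.32 in ESC (adjusted p = 0.13 or more in each).

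**Figure D1:**
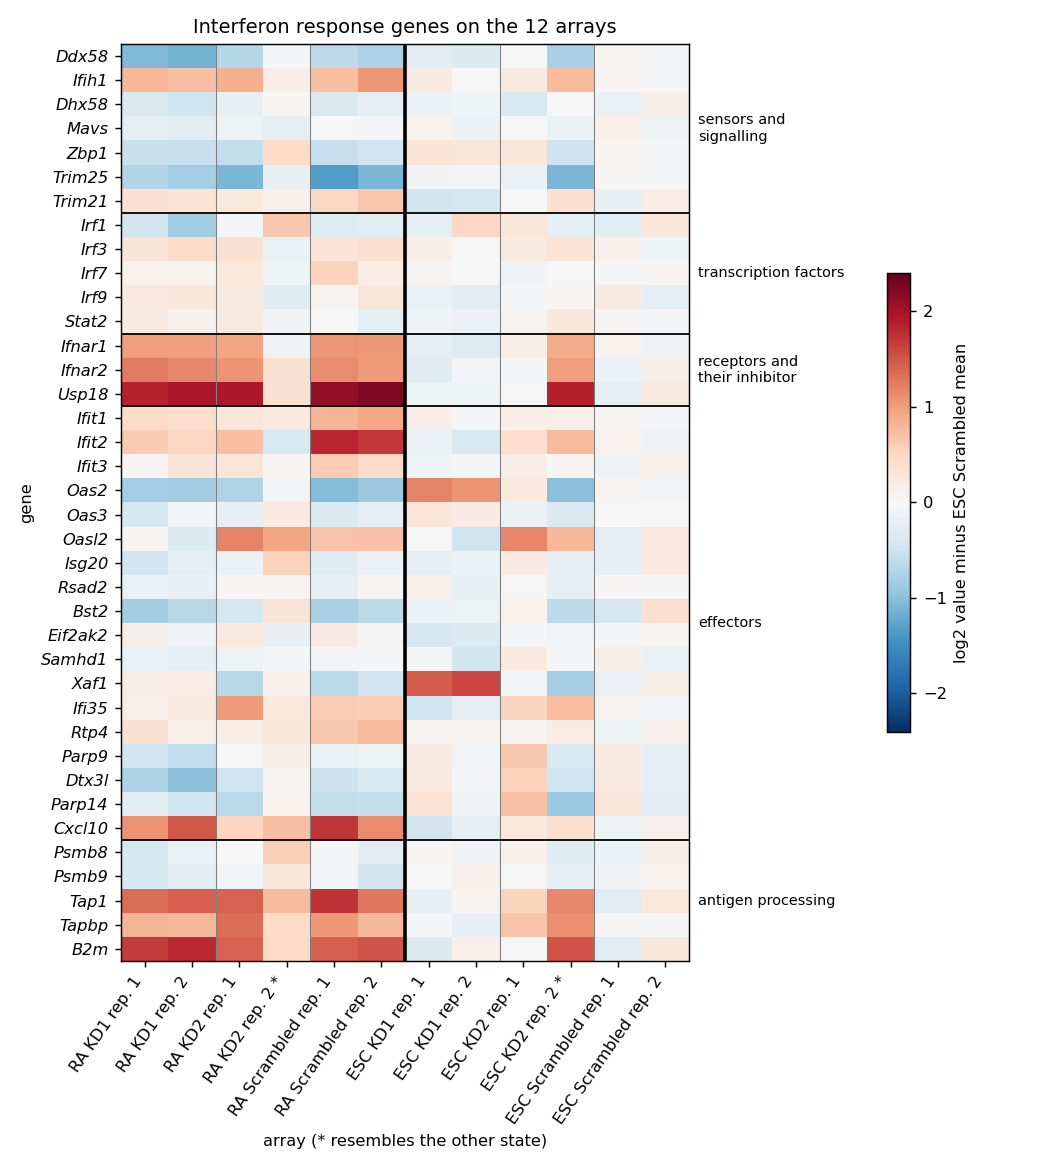
Log2 value of each of the 38 measured members (rows, by role) on each of the 12 arrays (columns, RA left and ESC right), minus the mean of the ESC Scrambled arrays. Stars mark the 2 arrays that resemble the other state. Usp18, Ifnar1, Ifnar2, Tap1, Tapbp and B2m are red in RA KD1, RA Scrambled, RA KD2 replicate 1 and the array labelled ESC KD2 replicate 2.

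The first question was how the interferon genes differed after 4 days of differentiation. In KD1 cells 14 of the 38 members were higher and 10 lower in RA than in ESC, and in scrambled cells 16 were higher and 7 lower. A member was called at a Benjamini-Hochberg adjusted p below 0.05 over all 19938 genes, with limma. The background was high, since 20.3% of all genes were called higher and 20.8% lower in KD1 cells, and 21.7% and 20.8% in scrambled cells. The median change of the members was 0.09 in KD1 and 0.05 in scrambled cells, against -0.08 and -0.04 over all genes. Taken without sign, the median change of the members was 0.558 in KD1 and 0.565 in scrambled cells, against 0.274 and 0.275 over all genes. Of the calls, 12 higher and 6 lower were made in both lines. The 12 are 85.7% of the higher calls in KD1 and 75.0% of those in scrambled cells, and the 6 are 60.0% and 85.7% of the lower ones. The same overlap was not computed over all genes, so these shares have no background and cannot be read as particular to the members.

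All 3 genes of the receptor group rose. Usp18, a protease that removes the ubiquitin-like protein Isg15 and blocks signalling at Ifnar2, read 8.70 and 8.81 log2 units in RA KD1 against 6.75 and 6.75 in ESC KD1, and 8.96 and 9.08 in RA Scrambled against 6.63 and 7.07 in ESC Scrambled. Every RA array lay above every ESC array of the same line. The change was 2.00 in KD1 (4.01-fold, SE 0.15, adjusted p = 1.28e-05) and 2.17 in scrambled cells (4.50-fold, SE 0.15, adjusted p = 8.06e-06). Ifnar1, the signalling chain of the receptor, read 10.71 and 10.69 in RA KD1 against 9.49 and 9.40 in ESC KD1, and 10.77 and 10.75 in RA Scrambled against 9.80 and 9.62 in ESC Scrambled. Ifnar2, the high-affinity chain, read 10.90 and 10.80 in RA KD1 against 9.36 and 9.59 in ESC KD1, and 10.79 and 10.67 in RA Scrambled against 9.51 and 9.79 in ESC Scrambled. Neither chain overlapped between states in either line. Ifnar1 rose by 1.25 in KD1 and 1.05 in scrambled cells (SE 0.11, adjusted p = 2.78e-05 and 7.2e-05), and Ifnar2 by 1.37 and 1.08 (SE 0.14, adjusted p = 5.94e-05 and 0.000218).

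Among the 5 antigen-processing genes, 3 rose in both lines and the immunoproteasome subunits Psmb8 and Psmb9 were not called in either. B2m, the light chain of MHC class I, read 12.47 and 12.57 in RA KD1 against 10.45 and 10.91 in ESC KD1, and 12.23 and 12.31 in RA Scrambled against 10.51 and 11.07 in ESC Scrambled. It rose by 1.84 in KD1 (SE 0.19, adjusted p = 7.13e-05) and by 1.48 in scrambled cells (SE 0.19, adjusted p = 0.000227), with no overlap. Tap1, a subunit of the peptide transporter, read 8.86 and 8.95 in RA KD1 against 7.34 and 7.58 in ESC KD1, and 9.25 and 8.78 in RA Scrambled against 7.26 and 7.78 in ESC Scrambled. It rose by 1.44 in KD1 (adjusted p = 0.000541) and 1.50 in scrambled cells (adjusted p = 0.000393). Tapbp, which holds empty class I molecules at the transporter, read 10.08 and 10.05 in RA KD1 against 9.22 and 9.06 in ESC KD1, and 10.31 and 10.04 in RA Scrambled against 9.29 and 9.25 in ESC Scrambled. It rose by 0.93 and 0.91 (adjusted p = 0.000446 and 0.000459) in KD1 and scrambled cells. Psmb9, whose promoter window overlaps that of Tap1, stood at -0.37 in KD1 (SE 0.15, adjusted p = 0.0782) and -0.25 in scrambled cells (adjusted p = 0.231). Psmb8 stood at -0.27 in KD1 (adjusted p = 0.171) and -0.15 in scrambled cells (adjusted p = 0.437).

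Of the 7 sensors and signalling genes, 2 rose and 3 fell, the same genes in both lines. Ifih1, the sensor of long double-stranded RNA, read 6.50 and 6.43 in RA KD1 against 5.92 and 5.72 in ESC KD1, and 6.44 and 6.77 in RA Scrambled against 5.77 and 5.67 in ESC Scrambled. It rose by 0.65 in KD1 (adjusted p = 0.0036) and 0.89 in scrambled cells (adjusted p = 0.000542), although its probe set lay below the array median on all 12 arrays. Ddx58, the sensor of 5′-triphosphate RNA, went the other way. It read 9.30 and 9.24 in RA KD1 against 10.10 and 10.05 in ESC KD1, and 9.74 and 9.63 in RA Scrambled against 10.42 and 10.32 in ESC Scrambled. It fell by 0.81 in KD1 (SE 0.11, adjusted p = 0.000399) and by 0.68 in scrambled cells (SE 0.11, adjusted p = 0.000954). Trim25, a ubiquitin ligase that activates Ddx58, read 10.50 and 10.38 in RA KD1 against 11.12 and 11.15 in ESC KD1, and 9.86 and 10.12 in RA Scrambled against 11.22 and 11.19 in ESC Scrambled. It fell by 0.70 in KD1 (adjusted p = 0.001) and by 1.22 in scrambled cells (adjusted p = 3.49e-05). Ddx58 and its activating ligase were thus both lower in RA, on every array of both lines. Zbp1, a sensor of Z-form nucleic acid, read 6.58 and 6.55 in RA KD1 against 7.43 and 7.40 in ESC KD1, and 6.56 and 6.63 in RA Scrambled against 7.15 and 7.06 in ESC Scrambled. It fell by 0.85 (adjusted p = 0.000176) in KD1 and by 0.51 (adjusted p = 0.00299) in scrambled cells. Trim21, an intracellular antibody receptor, read 8.66 and 8.62 in RA KD1 against 7.86 and 7.87 in ESC KD1, and 8.79 and 8.95 in RA Scrambled against 8.11 and 8.47 in ESC Scrambled. It rose by 0.78 (adjusted p = 0.00249) and 0.58 (adjusted p = 0.0102). Mavs, the shared adaptor of Ddx58 and Ifih1, stood at -0.20 in KD1 (adjusted p = 0.256) and -0.01 in scrambled cells (adjusted p = 0.953).

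Of the 5 transcription factors 1 rose and 1 fell in KD1 cells, and 1 rose and 0 fell in scrambled cells. Irf7, the amplifier of type I interferon transcription, stood at 0.05 in KD1 cells (adjusted p = 0.784) and rose by 0.36 in scrambled cells (SE 0.13, adjusted p = 0.0461). Irf9, the DNA-binding partner of Stat2, rose in KD1 cells by 0.47 (SE 0.16, adjusted p = 0.0437) and stood at 0.19 in scrambled cells (adjusted p = 0.405). Irf1, a factor induced by interferon gamma, read 9.26 and 8.87 in RA KD1 against 9.49 and 10.21 in ESC KD1, and 9.42 and 9.43 in RA Scrambled against 9.43 and 9.99 in ESC Scrambled. It fell in KD1 by 0.78 (SE 0.26, adjusted p = 0.0379) and stood at -0.28 in scrambled cells (adjusted p = 0.426). These calls differ between the lines, but the interaction for each of the 3 genes was not called. Irf3 and Stat2 were not called in either line.

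The 18 effectors split, with 5 higher and 6 lower in KD1 cells and 7 higher and 4 lower in scrambled cells. Ifit genes encode proteins that bind viral RNA and block its translation. Ifit2 read 6.65 and 6.52 in RA KD1 against 5.88 and 5.64 in ESC KD1, and 7.85 and 7.71 in RA Scrambled against 6.09 and 5.93 in ESC Scrambled. It rose by 0.82 in KD1 (SE 0.12, adjusted p = 0.000693) and by 1.77 in scrambled cells (SE 0.12, adjusted p = 7.85e-06). Ifit1 read 6.07 and 6.02 in RA KD1 against 5.77 and 5.56 in ESC KD1, and 6.42 and 6.55 in RA Scrambled against 5.64 and 5.58 in ESC Scrambled. It rose by 0.38 in KD1 (adjusted p = 0.0184) and 0.88 in scrambled cells (adjusted p = 0.000172). Ifit3 read 4.93 and 5.20 in RA KD1 against 4.80 and 4.87 in ESC KD1, and 5.52 and 5.36 in RA Scrambled against 4.79 and 5.01 in ESC Scrambled. It stood at 0.23 in KD1 (adjusted p = 0.158) and rose by 0.54 in scrambled cells (adjusted p = 0.00573). The interaction by limma was not called for Ifit3 (adjusted p = 0.405). Cxcl10, a chemokine that draws T cells, read 8.64 and 9.05 in RA KD1 against 7.13 and 7.34 in ESC KD1, and 9.29 and 8.71 in RA Scrambled against 7.46 and 7.69 in ESC Scrambled. It rose by 1.61 in KD1 (SE 0.21, adjusted p = 0.000329) and 1.43 in scrambled cells (SE 0.21, adjusted p = 0.000608). Of these genes, Ifit1, Ifit3 and Cxcl10 hold the response-element core in the RefSeq window.

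The effectors that fell were led by Oas2, which makes the oligoadenylates that activate RNase L. It read 6.52 and 6.50 in RA KD1 against 8.54 and 8.42 in ESC KD1, and 6.30 and 6.45 in RA Scrambled against 7.40 and 7.28 in ESC Scrambled. It fell by 1.97 in KD1 (SE 0.11, adjusted p = 2.96e-06) and by 0.96 in scrambled cells (SE 0.11, adjusted p = 0.000149). Xaf1, a pro-apoptotic binding partner of XIAP, read 8.30 and 8.32 in RA KD1 against 9.59 and 9.75 in ESC KD1, and 7.51 and 7.68 in RA Scrambled against 7.998 and 8.30 in ESC Scrambled. It fell by 1.36 in KD1 (SE 0.14, adjusted p = 8.54e-05) and by 0.55 in scrambled cells (SE 0.14, adjusted p = 0.012). Bst2 (tetherin), which holds budding virions at the membrane, read 8.32 and 8.48 in RA KD1 against 9.01 and 9.02 in ESC KD1, and 8.38 and 8.51 in RA Scrambled against 8.77 and 9.54 in ESC Scrambled. It fell by 0.62 in KD1 (SE 0.22, adjusted p = 0.0498) and by 0.71 in scrambled cells (SE 0.22, adjusted p = 0.0273). The KD1 call was lost without the intensity trend, with median centring, with the mean of probe sets and whichever single KD1 array was left out (adjusted p of 0.0501 to 0.22).

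Parp9, Dtx3l and Parp14, a set of chromosome 16 neighbours that encode ADP-ribosyltransferases and the ubiquitin ligase partner of Parp9, gave 3 calls of 6, all lower in RA. The interaction was not called for any of the 3 (adjusted p = 0.377, 0.318 and 0.911 in the order named). Dtx3l read 8.06 and 7.84 in RA KD1 against 9.04 and 8.80 in ESC KD1, and 8.30 and 8.46 in RA Scrambled against 9.04 and 8.61 in ESC Scrambled. It fell by 0.97 in KD1 (adjusted p = 0.00193) and stood at -0.44 in scrambled cells (adjusted p = 0.0694). Parp9 read 8.05 and 7.91 in RA KD1 against 8.71 and 8.43 in ESC KD1, and 8.35 and 8.38 in RA Scrambled against 8.72 and 8.29 in ESC Scrambled, where the states overlapped. It fell by 0.59 in KD1 (adjusted p = 0.0197) and stood at -0.14 in scrambled cells (adjusted p = 0.556). Parp14 read 7.15 and 6.95 in RA KD1 against 7.76 and 7.31 in ESC KD1, and 6.82 and 6.83 in RA Scrambled against 7.67 and 7.13 in ESC Scrambled. It stood at -0.48 in KD1 (adjusted p = 0.0814) and fell by 0.58 in scrambled cells (adjusted p = 0.0428).

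Ifi35, a small leucine-zipper protein, read 7.48 and 7.58 in RA KD1 against 6.89 and 7.12 in ESC KD1, and 7.96 and 7.95 in RA Scrambled against 7.42 and 7.30 in ESC Scrambled. It rose by 0.53 in KD1 (adjusted p = 0.00774) and 0.60 in scrambled cells (adjusted p = 0.0037). Rtp4, a chaperone of surface receptors, read 5.98 and 5.74 in RA KD1 against 5.69 and 5.66 in ESC KD1, and 6.26 and 6.38 in RA Scrambled against 5.51 and 5.72 in ESC Scrambled. Oasl2, a relative of the oligoadenylate synthetases, read 7.31 and 6.91 in RA KD1 against 7.23 and 6.76 in ESC KD1, and 7.93 and 7.96 in RA Scrambled against 7.01 and 7.48 in ESC Scrambled. Neither was called in KD1, at 0.19 for Rtp4 (adjusted p = 0.239) and 0.11 for Oasl2 (adjusted p = 0.692), and both rose by 0.70 in scrambled cells (adjusted p = 0.00121 and 0.0247). The interaction by limma was not called for Rtp4 (adjusted p = 0.137) or Oasl2 (adjusted p = 0.366). In KD1 alone Oas3, another synthetase, fell by 0.49 (adjusted p = 0.0158) and Eif2ak2, the double-stranded-RNA kinase PKR, rose by 0.40 (adjusted p = 0.0413), and the interaction was called for neither. In all, 9 members were called in neither line, with changes between -0.37 and 0.36. They were Dhx58, Mavs, Irf3, Stat2, Isg20, Rsad2, Samhd1, Psmb8 and Psmb9.

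**Figure D2:**
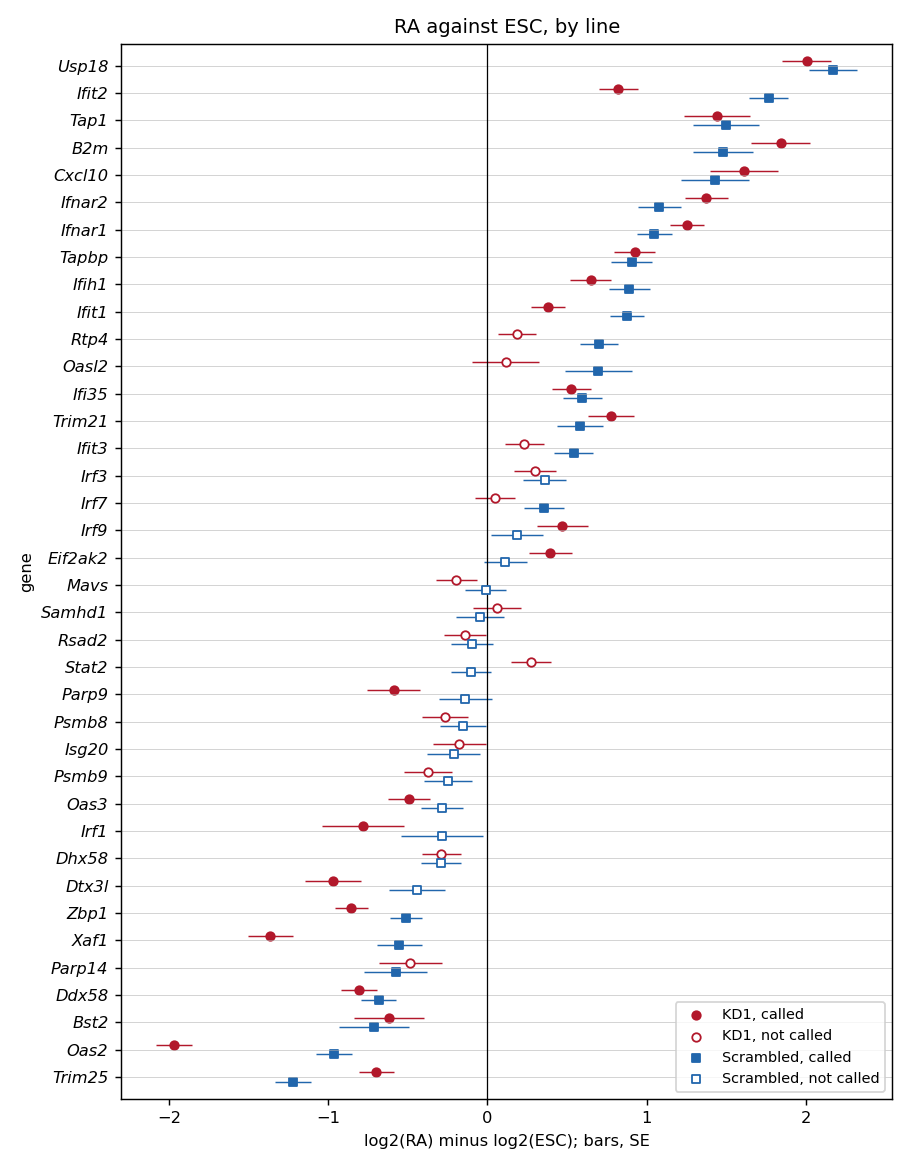
RA minus ESC for each member (log2 scale, bars are SE from limma on 8 arrays) in KD1 (circles) and scrambled cells (squares), ordered by the change in scrambled cells. Filled symbols passed an adjusted p of 0.05, and Usp18 stood highest and Trim25 lowest in scrambled cells, while Oas2 stood lowest in KD1 cells.

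By the presence of the response-element core, 6 of the 12 measured members with it were higher and 3 lower in KD1, and 6 were higher and 2 lower in scrambled cells. Of the 19 measured members whose windows lacked it, 7 were higher and 4 lower in KD1, and 8 and 2 in scrambled cells. Markers of other cells differed between the states, not all in the same direction. Of 5 endothelial markers, 2 were called higher and 1 lower in RA in KD1 cells, and 3 higher and 2 lower in scrambled cells. Among the haematopoietic and macrophage markers, 1 was higher and 2 were lower in each line. The fibroblast markers (7 measured) averaged 8.35 to 8.61 in RA KD1 and 9.04 to 9.06 in RA Scrambled. In ESC KD1 they averaged 7.63 to 7.66, and in ESC Scrambled 7.31 to 7.45. In each line 6 of the 7 were called higher and 1 lower. The 8 extraembryonic endoderm markers averaged 11.88 to 11.94 and 9.33 to 9.44 in RA KD1 and RA Scrambled, against 8.02 to 8.14 and 7.46 to 7.52 in ESC KD1 and ESC Scrambled. Their part in the results was not tested, and more cells of a type cannot be told from more RNA per cell in these bulk samples. Of 8 haematopoietic and macrophage markers, 7 lay below the array median on all 12 arrays (Ptprc, Cd14, Csf1r, Itgam, Lyz2, Aif1 and Adgre1). With all 12 arrays in the fit, 7 members were higher and 2 lower in KD1, and 8 higher and 1 lower in scrambled cells (Usp18, Tap1, Cxcl10, Trim25, Ifih1, Rtp4, Ifit1, Ifit2 and Ifit3).

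The rest of the pathway was read from lists of 94 measured genes that are not among the members. In KD1 cells 32 of the 94 were higher and 14 lower in RA, and in scrambled cells 27 were higher and 18 lower. These stand against the 20.3% higher and 20.8% lower of all genes in KD1, and 21.7% and 20.8% in scrambled cells. None of the 8 measured interferon genes themselves was called by limma in any of the 5 comparisons of scrambled and KD1 arrays (at most 2 at an unadjusted p below 0.05, for RA against ESC in KD1), and no such gene ranged over more than 0.85 log2 units across the 12 arrays. Of 10 receptor and kinase genes, 6 rose and 1 fell in scrambled cells. Jak2, a kinase of the interferon gamma receptor, rose by 2.46 (SE 0.28), Il10rb, a shared chain of the type III interferon receptor, by 2.35 (SE 0.18) and Ifngr2 by 1.63 (SE 0.19). Socs3, a feedback inhibitor of gp130 signalling, fell by 1.28 (adjusted p = 0.00902). Receptor chains of each of the 3 interferon types were thus among the genes higher in RA. Of 8 regulatory factors 3 rose in scrambled cells, with Irf2, a repressor that competes with Irf1, at 2.81 (7.02-fold, SE 0.15, adjusted p = 1.67e-06), then Rela (0.89) and Irf5 (0.46), and Irf8 fell by 0.51. Sting1 (1.60), Ticam1 (0.99) and Myd88 (0.75) rose in scrambled cells among 11 sensors and adaptors, while Ddx41 fell by 0.55, and in KD1 cells 6 of the 11 rose and 1 fell. Erap1, the peptidase that trims class I peptides, rose by 1.77, Psme2 by 0.79 and H2-M3 by 0.71 among 12 antigen-presentation genes, 5 of which rose and 1 of which fell in scrambled cells (Cd74, by 0.77). Of the 45 other interferon-stimulated genes 13 rose and 12 fell in KD1 cells, and 10 rose and 14 fell in scrambled cells. The lowest in scrambled cells were Phf11d (-2.84), Apobec3, a deaminase that restricts retroviruses (-2.06), and Ifitm1, which blocks virus entry (-1.78). The highest were Ifi203 (1.68), Lgals3bp (1.18) and Tor1aip1 (1.09), of which Ifi203 lay below the array median on each scrambled and KD1 array.

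The second question was how KD1 differed from the scrambled control in each state. In ESC, 2 of 38 members were higher and 0 lower by limma, against 0.848% higher and 1.09% lower over all genes. At an unadjusted p below 0.05 stood 8 of the 38, against 3139 of all 19938 genes. The median change was -0.07 for the members and 0.02 for all genes. Xaf1 read 9.59 and 9.75 in ESC KD1 against 7.998 and 8.30 in ESC Scrambled, and Oas2 read 8.54 and 8.42 against 7.40 and 7.28. Both KD1 arrays lay above both scrambled arrays for each gene. Xaf1 rose by 1.52 (2.88-fold, SE 0.14, adjusted p = 0.00192) and Oas2 by 1.14 (2.20-fold, SE 0.11, adjusted p = 0.00281). Both stayed called when any single array of these groups was left out, and neither was called with all 12 arrays in the fit (adjusted p = 0.188 and 0.471). The other 36 members lay between -0.42 (Trim21) and 0.31 (Zbp1). Extraembryonic endoderm markers averaged 8.02 to 8.14 in ESC KD1 and 7.46 to 7.52 in ESC Scrambled, with 4 of 8 higher, and their part in the result was not tested.

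In RA, 2 of 38 members were higher and 5 lower in KD1 than in scrambled cells, against 5.39% higher and 6.69% lower over all genes. With each array centred on its median the split was 2 higher and 3 lower. The median change was -0.13 for the members and -0.01 for all genes. Ifit2 had the largest fall among the members, at 6.65 and 6.52 in RA KD1 against 7.85 and 7.71 in RA Scrambled, with no overlap. It fell by 1.20 (0.437-fold, SE 0.12, adjusted p = 0.000429). Ifit1, at 6.07 and 6.02 against 6.42 and 6.55, fell by 0.44 (SE 0.11, adjusted p = 0.0278). Ifit3, the third gene of the cluster, stood at -0.37 (SE 0.12, adjusted p = 0.0857). Oasl2 read 7.31 and 6.91 in RA KD1 against 7.93 and 7.96 in RA Scrambled and fell by 0.83 (SE 0.21, adjusted p = 0.0337). Rtp4, at 5.98 and 5.74 against 6.26 and 6.38, fell by 0.46 (SE 0.12, adjusted p = 0.0371). Ddx58, at 9.30 and 9.24 against 9.74 and 9.63, fell by 0.42 (SE 0.11, adjusted p = 0.0406). Ifit1, Ifit3 and Rtp4 lay below the array median on all 12 arrays. Ifit2 lay above it on the RA Scrambled arrays alone (medians 7.22 and 7.23) and below it on every other array. It thus passed the filter on dim probe sets through that group alone. Ifit2, Ifit1, Oasl2, Rtp4 and Ddx58 did not overlap between KD1 and scrambled arrays. They were called on these same arrays, so this adds no support, and the share of all genes without overlap was not computed.

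Xaf1 was higher in KD1 in RA as well, at 8.30 and 8.32 against 7.51 and 7.68 in RA Scrambled, by 0.71 (SE 0.14, adjusted p = 0.0124). Trim25, at 10.50 and 10.38 against 9.86 and 10.12, rose by 0.45 (SE 0.11, adjusted p = 0.0306). The other 31 members lay between -0.43 (Dtx3l) and 0.27 (Stat2). Oas2, which was higher in ESC, stood at 0.13 in RA (SE 0.11, adjusted p = 0.56). Ifit2 was called whichever single array of both groups was left out, but the other calls were not. Each such fit left 1 array in a group, and fewer of all genes were called in each as well. The count of 7 was 1 (Ifit2) without RA Scrambled replicate 1, without RA KD1 replicate 1 and without RA KD1 replicate 2, and 3 without RA Scrambled replicate 2 (Ifit2, Trim25 and Xaf1). With all 12 arrays in the fit 0 members were called, with Ifit2 at an adjusted p of 0.0897. In that fit 6 of 38 members stood at an unadjusted p below 0.05, against 2438 of all 19938 genes. Beside these values, extraembryonic endoderm markers averaged 11.88 to 11.94 in RA KD1 and 9.33 to 9.44 in RA Scrambled, with 8 of 8 higher, and fibroblast markers had 0 higher and 3 of 7 lower. Endothelial markers had 2 higher and 2 lower of 5, at 7.21 to 7.34 in RA KD1 and 6.90 to 7.32 in RA Scrambled, and haematopoietic and macrophage markers had 2 of 8 higher, at 6.23 to 6.25 and 6.08 to 6.10. Their part was not tested.

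**Figure D3:**
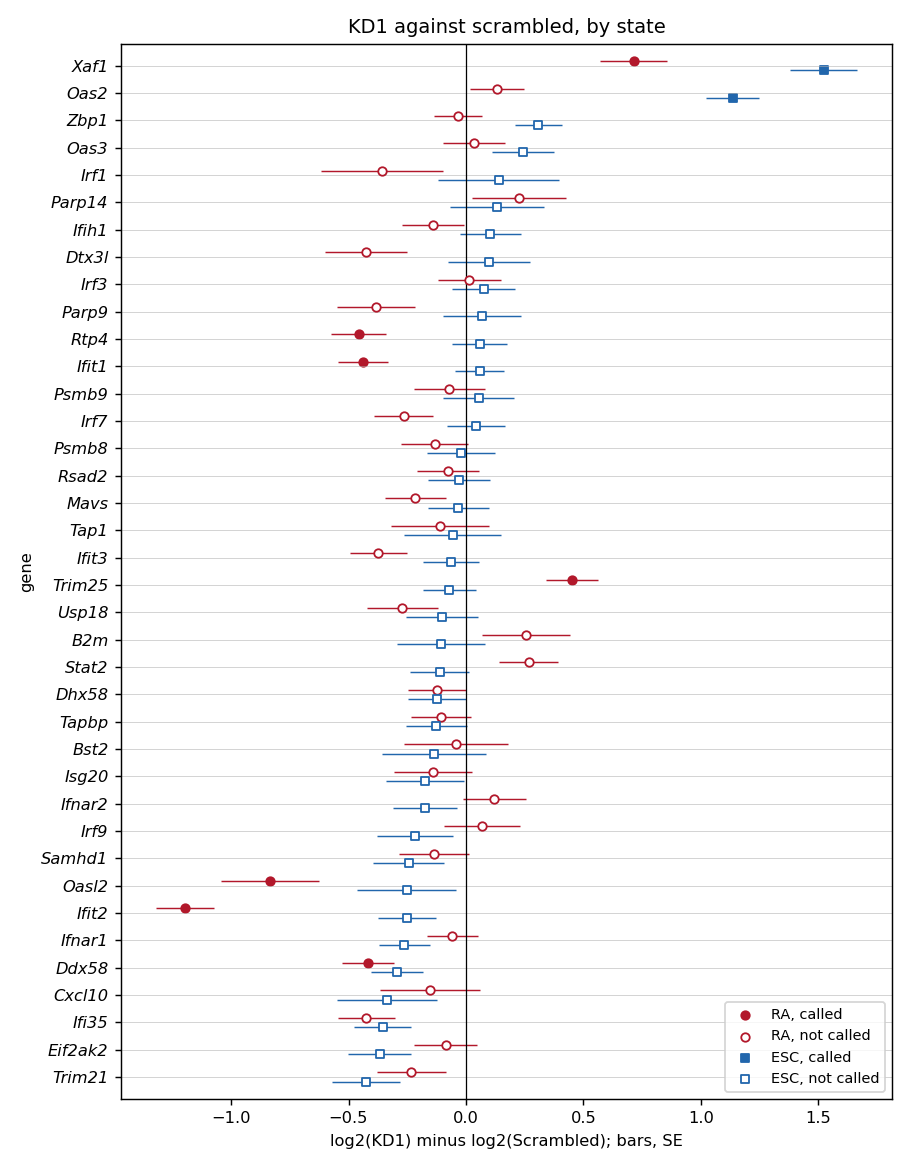
KD1 minus scrambled for each member (log2 scale, bars are SE from limma on 8 arrays) in RA (circles) and in ESC (squares), ordered by the difference in ESC. Filled symbols passed an adjusted p of 0.05, with Xaf1 and Oas2 at the top in ESC and Ifit2 lowest in RA.

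Among the other 94 pathway genes, 9 were higher and 7 lower in KD1 in RA, against 5.39% higher and 6.69% lower over all genes. In ESC 2 were higher and 2 lower, against 0.848% and 1.09%. In RA, Irf4, a lymphoid and myeloid factor, rose by 1.76 (3.39-fold, SE 0.11, adjusted p = 3.52e-05) and was the single regulatory factor of 8 that was called. The sensor and adaptor genes Ikbke (1.02), Myd88 (0.70) and Tlr3 (0.52) rose and 0 of 11 fell. Irf4 and Tlr3 lay below the array median on all 12 arrays. Calr (0.35) and Pdia3 (0.38), chaperones of class I folding, rose among 12 antigen-presentation genes. Tor3a (1.22), Tor1aip1 (0.68) and Zc3hav1 (0.67) rose and Rnf213 (-0.91), Parp10 (-0.55) and Lgals3bp (-0.53) fell among 45 other stimulated genes, of which 3 rose and 7 fell. Of the 10 receptor and kinase genes 0 were called by limma (2 at an unadjusted p below 0.05), and of the 8 interferon genes 0 (0).

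The interaction asked whether the difference between RA and ESC was itself different in KD1. It was called for 2 of 38 members, both lower, against 2.53% higher and 2.29% lower over all genes. Oas2 gave -1.002 (SE 0.16, adjusted p = 0.00957), with KD1 minus scrambled at 0.13 in RA and 1.14 in ESC. Ifit2 gave -0.94 (SE 0.18, adjusted p = 0.0183), with KD1 minus scrambled at -1.20 in RA and -0.25 in ESC. Xaf1 gave -0.81 (SE 0.20, adjusted p = 0.0589), Trim25 0.52 (adjusted p = 0.113), Ifit1 -0.50 (adjusted p = 0.112) and Rtp4 -0.52 (adjusted p = 0.137), none of which passed in this fit. With a replicate block within each state, B2m, Trim25 and Xaf1 were called too. That gave 5 members (2 higher, 3 lower), against 14.4% of all genes. Xaf1 did pass without the intensity trend, with repeated quantile normalization and without ESC Scrambled replicate 2. Only Oas2 was called without ESC KD1 replicate 1, without RA Scrambled replicate 1 or without RA KD1 replicate 1. Neither gene was called without RA KD1 replicate 2 or with all 12 arrays.

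**Figure D4:**
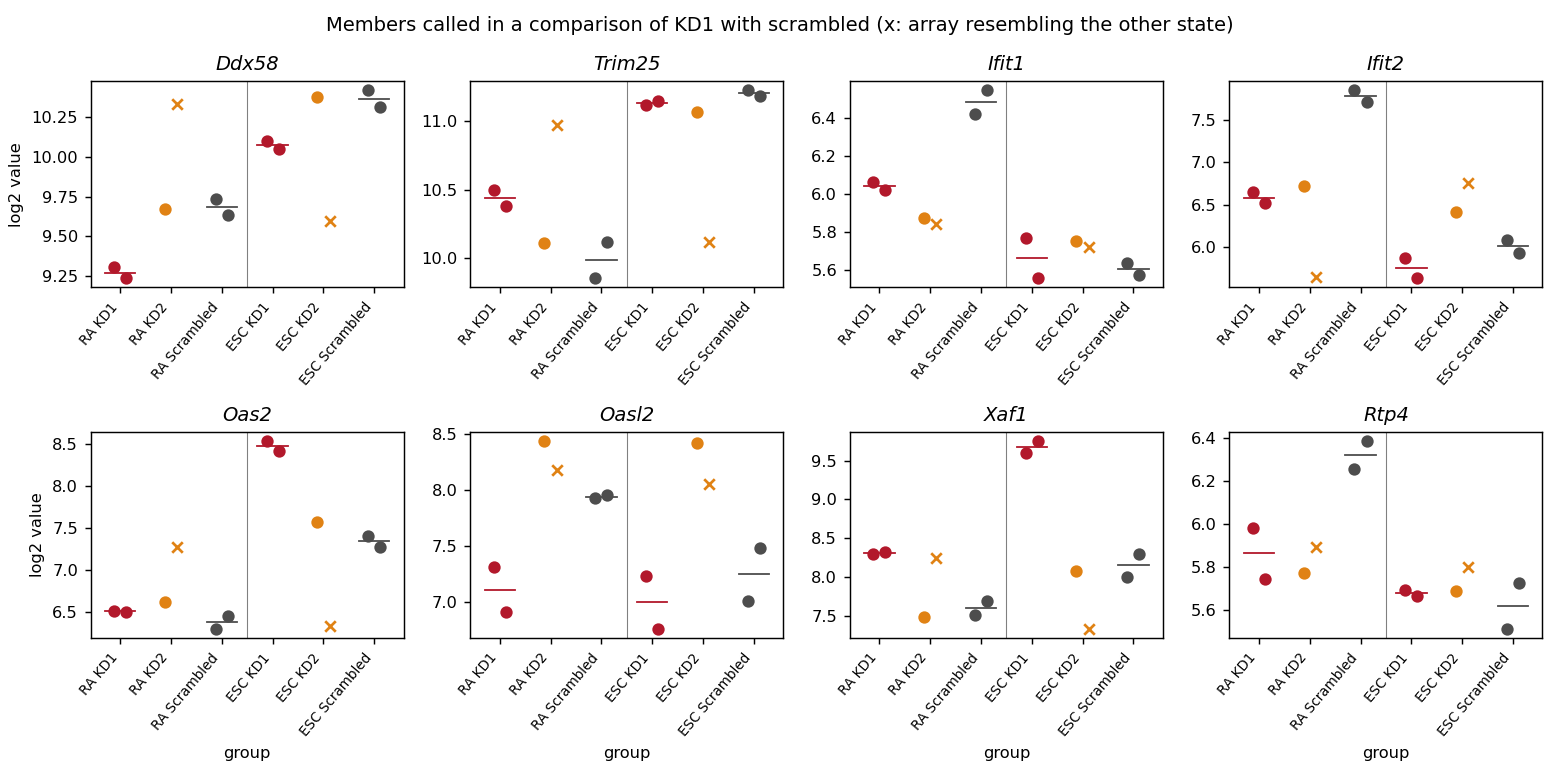
Log2 value on each array of the 8 members called in a comparison of KD1 with scrambled cells or in the interaction, by group (RA left, ESC right). Lines are means of the KD1 and scrambled groups, and crosses are the 2 arrays that resemble the other state. Ifit2 is highest on both RA Scrambled arrays and Xaf1 and Oas2 are highest on both ESC KD1 arrays.

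KD2 was compared as labelled and again without its 2 displaced arrays, which left 1 KD2 array per state, whose spread is taken from that of the other groups. As labelled, 0 of 38 members were called between RA and ESC in KD2 by limma, with 0 at an unadjusted p below 0.05, and 0% of all genes were called in either direction. Without both arrays, 6 members were higher and 6 lower, against 11.0% and 9.46% of all genes. The higher ones were Usp18 (1.95), B2m (1.43), Ifnar2 (1.13), Ifnar1 (0.77), Tapbp (0.66) and Ifih1 (0.64). The lower ones were Parp14 (-1.34), Dtx3l (-1.03), Trim25 (-0.95), Oas2 (-0.95), Zbp1 (-0.85) and Ddx58 (-0.70). Usp18 read 8.80 on RA KD2 replicate 1 and 7.21 on the array labelled RA KD2 replicate 2, against 6.84 on ESC KD2 replicate 1 and 8.72 on the array labelled ESC KD2 replicate 2. B2m read 12.21 and 11.26 on the RA-labelled KD2 arrays, against 10.77 and 12.30 on the ESC-labelled ones, in the same order of replicates. Replicate 2 thus stood nearer to the other state for both genes.

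Against scrambled cells in RA, KD2 as labelled had 0 members higher and 1 lower, against 0.0251% and 0.246% of all genes. That member was Ifit1, at 5.88 and 5.84 against 6.42 and 6.55 in RA Scrambled, a fall of 0.62 (SE 0.09, adjusted p = 0.044). It was not called without RA Scrambled replicate 1, without RA Scrambled replicate 2 or without RA KD2 replicate 2. Each of these fits left 1 array in a group, and fewer of all genes were called in each. Without RA KD2 replicate 1, Ifit1 and Ifit2 were called, and more of all genes were called too. The only RA KD2 array left in that fit was replicate 2, which resembles the ESC state. Ifit2 read 5.65 on it, against 6.09 and 5.93 in ESC Scrambled, so that fit cannot tell the knockdown from the state. Without the displaced arrays Ifit1 stood at -0.61 (SE 0.13, adjusted p = 0.0799). Ifit2 was then the 1 member called, against 0.326% of all genes higher and 0.637% lower, at 6.73 on RA KD2 replicate 1 against 7.85 and 7.71 in RA Scrambled (-1.05, SE 0.15, adjusted p = 0.017). KD1 and KD2 share the scrambled arrays here, so their differences for Ifit2, -1.20 and -1.05, are not independent. Oasl2, lower in RA KD1, read 8.44 on RA KD2 replicate 1, above both RA Scrambled arrays.

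In ESC, 0 members were called for KD2 against scrambled cells as labelled. Of the 38, 4 stood at an unadjusted p below 0.05, against 2057 of all 19938 genes. Without the displaced arrays no member was called either. Over all genes 0.0100% were higher and 0.0752% lower as labelled, and 0.717% and 0.271% without those arrays. Xaf1 and Oas2, higher in ESC KD1, read 8.08 and 7.57 on ESC KD2 replicate 1, against 7.998 and 8.30 for Xaf1 and 7.40 and 7.28 for Oas2 in ESC Scrambled. Oasl2 read 8.42 on ESC KD2 replicate 1 against 7.01 and 7.48 in ESC Scrambled, a difference of 1.18 without the displaced arrays (SE 0.26, adjusted p = 0.0868). The difference between KD1 and KD2 was not tested.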

How the data were processed

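Expression was measured on 12 arrays, 1 per sample, in 6 groups of 2 taken from the sample labels. The authors deposited log2 values per probe set made by RMA (background correction, normalization between arrays and summary of probes), the tool named in the submitters' processing notes; its version and the genome build are not given in the sources used here. Biotinylated cRNA came from 300 ng of RNA, per the labels. The table held 35556 probe sets. The platform annotation named 1 symbol for 21789, several for 1621 and listed 12146 not at all. Each gene was read from its brightest probe set with 1 symbol. RMA values carry no detection call, and 8 members lay below the array median on all 12 arrays (Ifih1, Dhx58, Irf7, Ifit1, Ifit3, Rsad2, Rtp4 and Psmb8). The number of arrays limits the precision.

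Limma 3.58.1 in R 4.3.3 was fitted with empirical Bayes moderation and an intensity trend, with Benjamini-Hochberg adjustment over 19938 genes and calls at an adjusted p below 0.05. Comparisons of scrambled and KD1 used 8 arrays (4 residual and 4.94 prior degrees of freedom). KD2 used all 12 arrays (6 and 2.76), and then 10 arrays (4 and 4.93). The spread was pooled over groups. The members, the lists of other pathway genes and markers, and the fits were chosen with earlier results of these data known. Values by array are given for members called with a log2 change of at least 0.5, and of each other list at most the 3 largest calls each way. Where arrays of called members are said not to overlap, these are the same values that gave the calls and add no support to them. RefSeq promoter windows of GRCm38.p6 were scanned on both strands. Alternatives were the arrays fitted, a replicate block, no trend, repeated quantile normalization, median centring, a filter on dim probe sets, the mean of probe sets, and single arrays left out. Matplotlib 3.10.9 drew the figures.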

Additional observations from a re-analysis of the deposited data

Results flagged for a closer look

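The difference between RA and ESC differed between KD1 and scrambled cells for 2 members, by limma's interaction term. For Oas2 the RA change in KD1 minus that in scrambled cells was -1.002 log2 units (SE 0.16, adjusted p = 0.00957), with RA changes of -1.97 in KD1 and -0.96 in scrambled cells. For Ifit2 it was -0.94 (SE 0.18, adjusted p = 0.0183), with RA changes of 0.82 in KD1 and 1.77 in scrambled cells.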

How the results depend on the processing

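With all 12 arrays in the fit, the count of 24 members called for RA against ESC in KD1 was 9, and that of 23 in scrambled cells was 9. KD1 against scrambled then gave 0 in RA and 0 in ESC, and the interaction 0 (6, 3 and 3 at an unadjusted p below 0.05), in place of 7, 2 and 2. Over all 19938 genes, 2438, 1507 and 1601 had such an unadjusted p, in the same order. All genes called for RA against ESC in scrambled cells numbered 8485 with 8 arrays and 2751 with 12. In KD1 cells they numbered 8183 and 2249. For KD1 against scrambled they numbered 2408 and 463 in RA and 387 and 13 in ESC, and for the interaction 961 and 52. The scrambled and KD1 means are the same in both fits. The SE of KD1 against scrambled in RA was larger with 12 arrays for 36 of 38 members and smaller for Ifit1 and Rtp4. With 10 arrays all 5 counts were as with 8. For KD2, leaving out the 2 displaced arrays gave 12 members for RA against ESC in place of 0. The 1 member of KD2 against scrambled in RA was 0 with a replicate block and without the intensity trend, for which the cause was not tested, and with the filter on dim probe sets, which removed Ifit1. Leaving out single arrays gave 17 to 20 members for RA against ESC in KD1, 18 to 22 in scrambled cells, 1 to 3 for KD1 against scrambled in RA, 2 to 2 for the same in ESC and 0 to 3 for the interaction. It gave 0 to 2 for KD2 against scrambled in RA, and 0 for the other KD2 comparisons. Each of these fits left 1 array in a group. Among scrambled and KD1 arrays the number of all genes called changed in each fit as well. It was lower in each for RA against ESC and for KD1 against scrambled in RA. These ranges thus cannot be read as particular to the members. The labels name no day or batch for the replicate numbers, so whether arrays of the same number were paired is not known. Differences between replicates correlated at 0.141 to 0.633 within a state, and at 0.15 in RA and 0.633 in ESC for KD1 with scrambled. With a replicate block within each state, KD1 against scrambled gave 13 members in RA (3 higher, 10 lower) and 4 in ESC (2 and 2), against 24.1% and 10.5% of all genes. The interaction gave 5 (2 higher, 3 lower), with B2m, Trim25 and Xaf1 beside Ifit2 and Oas2, against 14.4% of all genes. RA against ESC gave 28 members in KD1 and 25 in scrambled cells, against 50.9% and 51.7% of all genes. Of 1110 values of single called genes under the alternatives, 926 kept their direction and call, 184 kept the direction only and 0 reversed. Some alternatives could not reverse a change among the scrambled and KD1 groups. The fits with 12 or 10 arrays, without the trend, with the block and with the filter on dim probe sets keep the means of those groups.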
